A study of Mus musculus with 3 samples.

Results

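The 100 genes described here had the largest share of their counts on transcripts annotated as targets of nonsense-mediated decay (NMD) in mouse macrophages. They were chosen from 6449 genes that have a protein-coding transcript and at least 500 expected counts in each of 3 libraries, out of 55450 genes with a transcript in the deposited tables. An expected count is the estimated number of fragments of a transcript, and the NMD share of a gene is the percent of its expected counts on transcripts of the annotation class nonsense_mediated_decay. Genes were ranked by their lowest NMD share over the libraries, and 2031 of the 6449 have an annotated NMD transcript, of which 1931 are not among the 100. The shares chose the genes, so they are given as a description and nothing was tested.

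Primary macrophages were grown from bone marrow of C57BL/6J mice. Lipid A, the membrane anchor of bacterial endotoxin and the ligand of the receptor TLR4, was given to all of them at 100 ng/ml for 12 h. After 12 h without it a second dose of 100 ng/ml followed for 10 min before collection. Cytosolic RNA was depleted of ribosomal RNA and sequenced from 3 libraries, biological replicates 1, 2 and 3 of this single condition. They share 1 donor identifier, so the spread between them may be technical, and no untreated cells, cells with blocked decay or nuclear RNA were analysed here.

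NMD is a surveillance pathway that destroys mRNAs on which a ribosome stops too early. Splicing leaves a protein complex just upstream of each exon junction. A stop codon well ahead of the last junction leaves such a complex on the mRNA when translation ends, and the UPF and SMG proteins then start its decay. The pathway also has a regulatory use, since splicing factors and ribosomal proteins are known for alternative exons with a stop codon, often called poison exons, by which splicing lowers the amount of mRNA that can be translated. An annotated NMD transcript is a prediction from this rule. A high share therefore says that many of a gene's counts were assigned to such a transcript and does not measure decay.

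Replicate 1 stood apart from the other libraries. It was the shallowest, with 31891573 expected counts over the genes kept for the dispersion fit, against 53061413 and 57035921 in replicates 2 and 3. It also held more RNA known to stay in the nucleus, with 1333 TPM of Malat1 against 118 and 152 TPM, 66.0 TPM of Neat1 against 13.9 and 17.6 TPM, and 32.6 TPM of Xist against 0.42 and 0.35 TPM. TPM corrects counts for transcript length and library size. All 8 macrophage markers passed the count minimum, from 41.1 TPM of Mertk to 2989 TPM of Lyz2. Of 10 markers of other cell types the highest was Prss34 at 0.0733 TPM, and Cd3e, Ly6g, Hbb-bs, Retnlg, Cd209a and Gp9 had no counts.

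The leading NMD transcript of each gene, the one with the most counts, showed where its reading frame ended. Its coding sequence ended in TGA in 57 genes, in TAA in 30 and in TAG in 13. None of the 100 reading frames had an earlier stop codon in frame, which follows from how a reading frame is annotated. In 83 genes at least 1 exon junction ahead of the stop codon occurred in no protein-coding transcript of the gene, and the nearest of these lay a median of 36 bases before the end of the stop codon. In 69 genes this distance was 100 bases or less. The sequences below run 5′ to 3′ from 20 bases before that junction to the stop codon, which is in capitals, and come from GENCODE M21 on mm10. A line named for a coding transcript shows the same stretch of the coding transcript with the most counts, from the same 20 bases onward.

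In 15 genes the stop codon lay in an internal exon that no coding transcript has, the arrangement of a poison exon. In Ifi214, 1 of the 15, the reading frame was not shortened, with 393 codons against 219 in the longest coding transcript. These exons were 59 to 198 bases long, and 12 of the 15 lengths are not multiples of 3. The following 4 genes show it, in an HMG-box protein (Hmgxb4, exon at chr8:74999999-75000113, plus strand), an SH3 adaptor protein (Ostf1, chr19:18598913-18598989, minus strand), the interleukin-4 receptor chain (Il4ra, chr7:125571934-125572047, plus strand) and cyclin L1 (Ccnl1, chr3:65955130-65955276, minus strand).
Hmgxb4-206: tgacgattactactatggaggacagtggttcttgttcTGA
Ostf1-205: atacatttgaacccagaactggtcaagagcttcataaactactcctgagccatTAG
Ostf1-204: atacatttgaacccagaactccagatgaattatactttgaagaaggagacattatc
Il4ra-205: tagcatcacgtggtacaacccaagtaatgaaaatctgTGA
Il4ra-201: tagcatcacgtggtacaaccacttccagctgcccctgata
Ccnl1-203: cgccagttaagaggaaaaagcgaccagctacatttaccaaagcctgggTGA
Ccnl1-201: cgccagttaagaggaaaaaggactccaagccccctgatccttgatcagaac
In Ostf1, Il4ra and Ccnl1 the NMD and coding lines are the same for the 20 bases before the junction and differ from the next base on. The exon in Ostf1 is 77 bases long and its stop codon ends 36 bases into it, while in Il4ra the exon is 114 bases long and the stop codon ends 20 bases into it.

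In 47 genes both sides of the junction were found apart in the leading coding transcript, so that the NMD transcript leaves out a stretch of it. The stretch, counted over the whole coding transcript and not only its reading frame, was 5 to 4094 bases long with a median of 94. In none of the 47 genes was it a multiple of 3. The longest was in Hnrnpu, whose NMD reading frame of 793 codons was nearly as long as the longest coding one. This count alone therefore does not show a shift of frame in every gene. Such a junction can skip a whole exon, as in Styx, a pseudophosphatase (chr14:45366599-45366659, plus strand, 98 bases left out), Ctsh, the lysosomal protease cathepsin H (chr9:90062717-90062787, plus strand, 106 bases) and Mrpl13, a protein of the mitochondrial ribosome (chr15:55543324-55543384, minus strand, 94 bases). The coordinates are those of the exon with the stop codon.
Styx-204: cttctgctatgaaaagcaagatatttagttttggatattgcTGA
Styx-205: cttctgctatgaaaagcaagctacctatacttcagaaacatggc
Ctsh-202: ttaagtcatggatgaaacagtggcatTGA
Ctsh-201: ttaagtcatggatgaaacagcatcaaaag
Mrpl13-202: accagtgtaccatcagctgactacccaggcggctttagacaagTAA
Mrpl13-205: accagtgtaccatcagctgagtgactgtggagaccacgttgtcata
Other junctions moved a splice site by a few bases. Aptx, a DNA repair enzyme, left out 5 bases (chr4:40695377-40695418, minus strand), and Mrpl32, of the mitochondrial ribosome, 16 bases (chr13:14611423-14611604, minus strand).
Aptx-205: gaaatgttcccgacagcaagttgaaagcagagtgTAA
Aptx-201: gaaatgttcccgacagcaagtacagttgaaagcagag
Mrpl32-201: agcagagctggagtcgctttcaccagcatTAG
Mrpl32-202: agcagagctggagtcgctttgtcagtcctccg
In both pairs the stop codon ends within 17 bases of the moved splice site. Among genes checked, with the junction within 160 bases of the stop codon, the leading coding transcript held the same 20 bases in 65. Counted from the annotated start of each reading frame, their frame was the same in both transcripts in 60 of the 65. This count takes no account of a missing start, as in Stab2 and Senp2, so the others cannot be said to differ in frame.

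**Figure D1:**
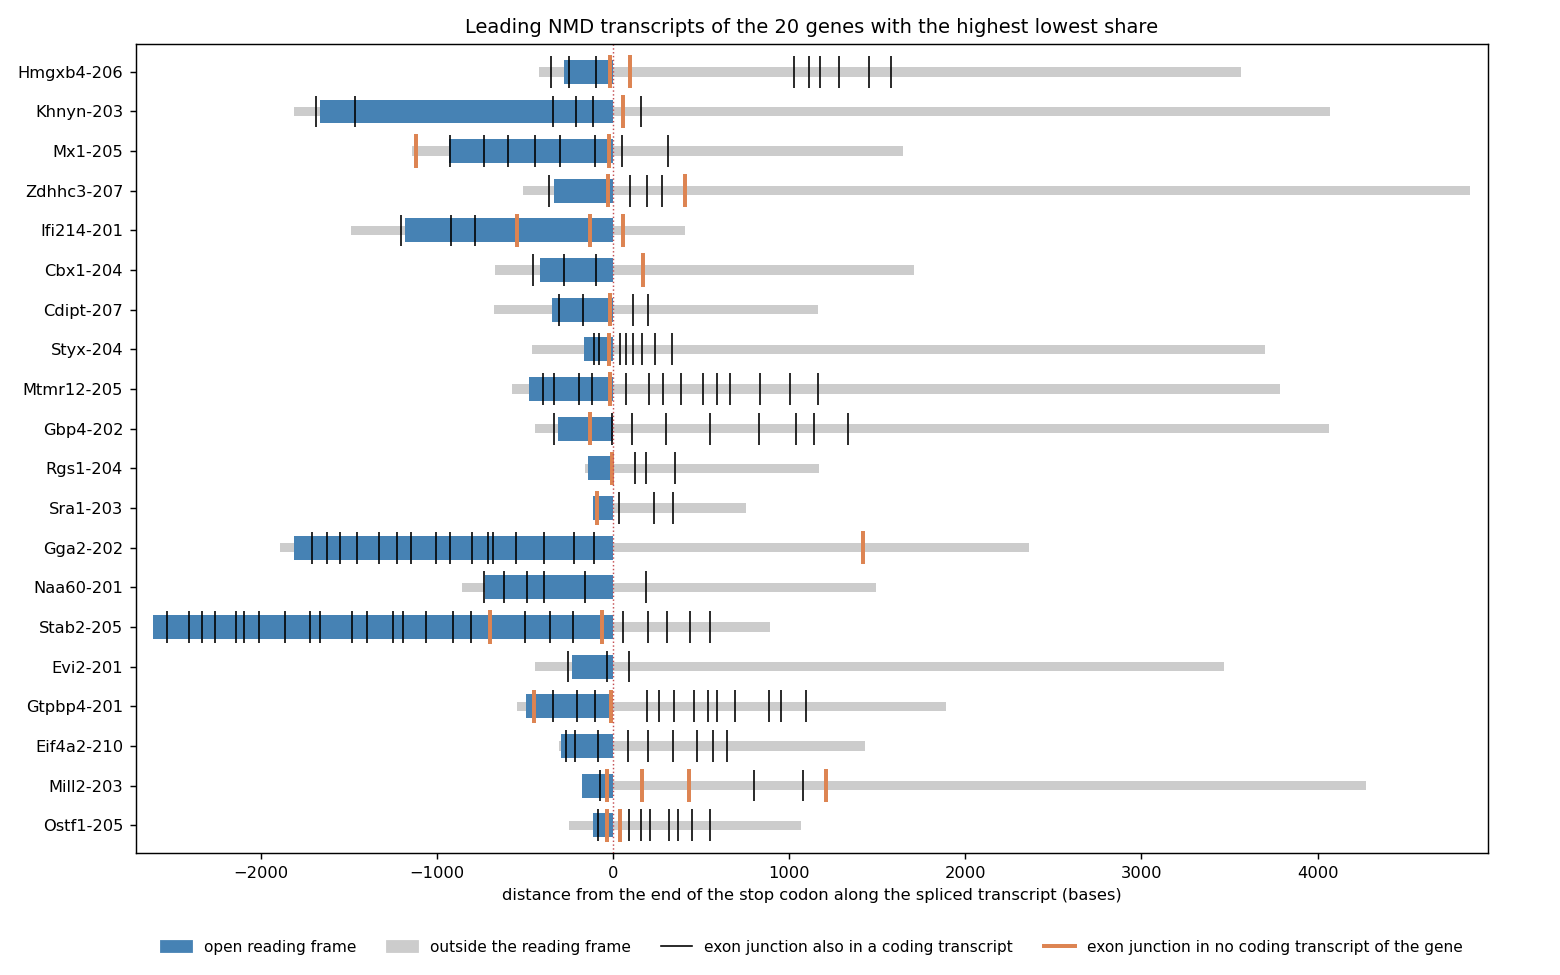
Leading NMD transcripts of the 20 genes with the highest lowest share, drawn to scale along the spliced transcript with 0 at the end of the stop codon (bases). Blue marks the open reading frame, grey the rest, black ticks the exon junctions that a coding transcript of the gene also has, and orange ticks those that none has. Every transcript has at least 1 junction to the right of the stop codon, and Naa60, Evi2 and Eif4a2 have no orange tick.

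In all 100 genes the stop codon of the leading NMD transcript lay more than 50 bases before its last exon junction, the usual rule for an NMD target. Among the 2031 genes with an NMD transcript the share was 99.4%. The annotation class is itself a prediction from this rule, so neither value is a finding of these data. The median distance was 600 bases with 4 junctions after the stop codon in the 100 genes, and 358 bases with 3 junctions in the 1931 other genes. Distances were 58 bases in Ifi214 at the short end and 12430 bases in Stard9 at the long end. The reading frame had a median of 98 codons, against 445.5 in the longest coding transcript of the same genes. In the other genes the medians were 99 and 544 codons. The reading frame was shorter than 100 codons in 51 of the 100 genes and at least as long as the longest coding one in 7: Ifi214, Gga2, Naa60, Prpf4b, Gm38394, Rtl5 and Hnrnpdl. In Hnrnpu the reading frame had 793 codons in the NMD transcript and 800 in the longest coding one.

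The annotation of these transcripts differed from that of the other genes in several counts, none of which was tested. The start codon was shared with a coding transcript in 88% of the 100 genes and 68.7% of the others. Transcript support level 1, the best grade of evidence from full-length RNA, was given to 62% and 30.1%, and level 5, the weakest grade, to 19% and 33.1%. The start of the reading frame was missing in 10% and 29.8%. A coding exon was skipped in 38% and 39.4%, the stop codon lay in an internal exon of its own in 15% and 22.2%, and a coding intron was retained in 3% and 6.53%. The 3 genes with a retained coding intron were Glo1, Sh2b3 and Tk2.

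**Figure D2:**
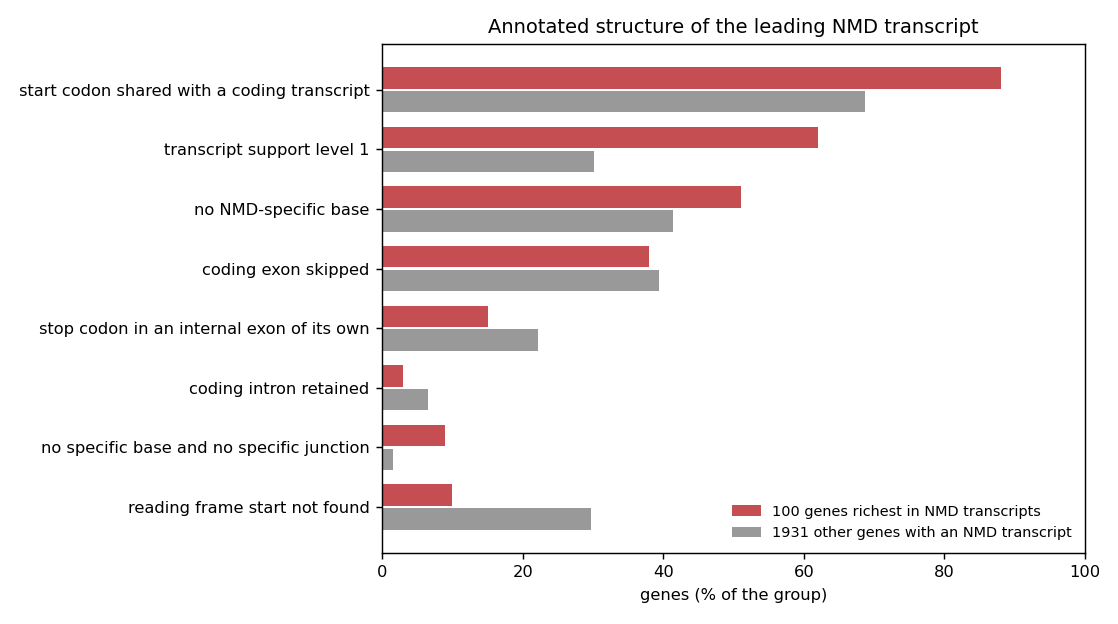
Percent of genes whose leading NMD transcript has each annotated feature, for the 100 genes richest in NMD transcripts (red, upper bars) and the 1931 other genes with an NMD transcript (grey, lower bars). Support level 1 stands at 62% against 30.1%, and a missing start of the reading frame at 10% against 29.8%.

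The bases that can tell an NMD transcript from the coding ones limit each share. In 51 of the 100 genes (41.4% of the others) the leading NMD transcript had no base outside the coding transcripts. In 42 of those 51 it had at least 1 junction of its own, which a read can cross. The remaining 9 had neither: Naa60, Evi2, Eif4a2, Nsun3, Mtmr2, Gm38394, Slc35b1, Rnf14 and Rtl5. The other genes held 1.61% of this kind. For these 9 the counts rest on how reads fall along shared exons. In Gm38394 and Rtl5 the NMD transcript has the same sequence as a coding transcript, and Gm38394 stood at 50% in every library and in both estimates. At the other end, 9 genes had 500 or more bases of their own after the stop codon. They were Zdhhc3 with 4459, Mill2 with 2401, Khnyn with 2050, Sass6 with 1748, Gbp6 with 1709, Trub2 with 1426, Cbx1 with 1385, Mr1 with 601 and Polr1a with 589.

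Together the 100 genes held 48.1%, 47.6% and 49.5% of all NMD counts of the 6449 genes in replicates 1, 2 and 3, though only 1.22%, 1.08% and 1.09% of their total counts. NMD transcripts took 1.36%, 1.27% and 1.22% of all counts of the 6449 genes. The median of the mean NMD shares was 54.2% in the 100 genes and 0.741% in the 1931 others. These shares of counts are not corrected for transcript length. On the TPM scale, which is, the medians were 56.4% and 1.64%. Single genes moved either way on that scale, as Gbp4 from a mean of 75.1% to 50.2% and Mrpl32 from 65.3% to 91.2%. In 48 genes NMD transcripts held at least 50% of the counts in every library, and in 55 they held more than the coding transcripts in every library, against 2 of the others. The median gene level was 13.0 TPM in the 100 genes and 12.8 TPM in the others. In bulk RNA a lower level can mean fewer cells with the transcript or less of it in each cell, and these cannot be told apart.

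**Figure D3:**
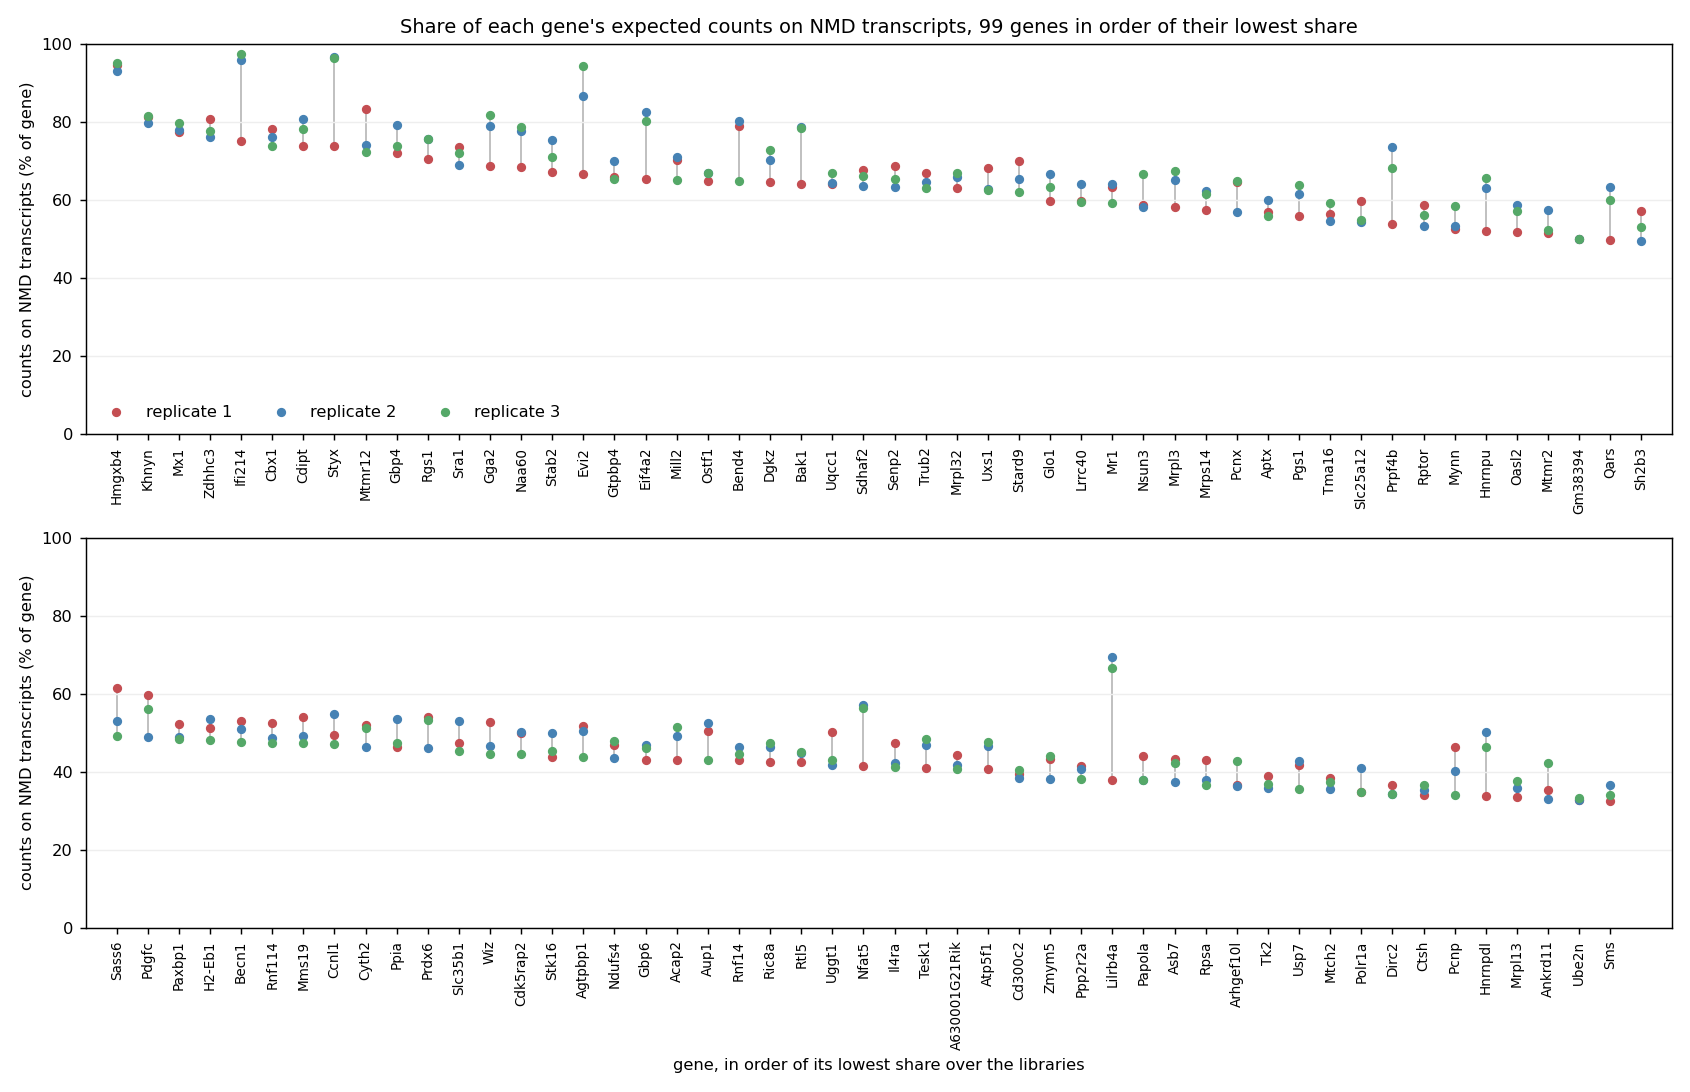
NMD share of 99 of the 100 genes (percent of the gene's expected counts), in order of its lowest share, with 1 point per library and a grey line over the range. The lowest share falls from 93.1% in Hmgxb4 to 32.6% in Sms, and the widest lines belong to Lilrb4a, Evi2, Styx and Ifi214.

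Genes of immunity and the interferon response were the largest group among the 100, with 18 genes and a median mean share of 60.1%. The grouping by role was made after the members were known and for them only. No share over all genes therefore stands beside this or the later group sizes. Mx1, an interferon-induced GTPase against influenza viruses, had shares of 77.4%, 78.0% and 79.8% in replicates 1, 2 and 3, the order in which all sets of 3 values are given. C57BL/6 mice are known to carry a defective Mx1 allele that lacks coding exons. The reading frame of its leading transcript Mx1-205 ended in exon 9 of 11, after a junction that no coding transcript has, as the following line shows (chr16:97451475-97451551, minus strand).
Mx1-205: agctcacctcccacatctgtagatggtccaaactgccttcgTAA
Mx1 stood at 433, 125 and 173 TPM and alone gave 10.8% of the NMD counts of the 100 genes. Its level was highest in replicate 1, while its share differed by 2.40 points over the libraries.

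Oasl2, a relative of the oligoadenylate synthetases that sense viral RNA, had shares of 51.8%, 58.8% and 57.1% at 190.4 ± 40.4 TPM (SD, n = 3), and its transcript left out 289 bases of the coding one. The guanylate-binding proteins Gbp4 and Gbp6 are GTPases that attack pathogen vacuoles. Gbp4 had 72.1%, 79.3% and 74.0%, and Gbp6 had 43.1%, 46.9% and 46.1%. The levels of all 3 genes were highest in replicate 1, but their shares were lowest there. Gbp4 and Gbp6 share exon bases with another gene on the same strand, and such families have close copies, so their counts are uncertain. Khnyn, a partner of the antiviral protein ZAP in human cells, reached 81.4%, 79.8% and 81.6% at 4.82 ± 1.58 TPM. Ifi214, of the interferon-inducible PYHIN family, had 75.2%, 95.8% and 97.4%, lowest in replicate 1, on only 518, 521 and 587 counts.

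Receptors, a regulator of receptors and antigen-presenting molecules were also present. Rgs1, which shortens chemokine receptor signals, had shares of 70.5%, 75.7% and 75.6%, and its reading frame of 46 codons stopped 4 bases after its own junction. Mill2, a relative of MHC class I, had 70.3%, 71.1% and 65.0%, but a mean of only 37.8% on the TPM scale. Mr1, which presents vitamin B metabolites to T cells, had 63.3%, 64.2% and 59.3%. The class II chain gene H2-Eb1 had 51.2%, 53.6% and 48.2%. Shares of the cytokine receptor gene Il4ra, whose exon is printed above, were 47.4%, 42.2% and 41.1%. The scavenger receptor gene Stab2 had 67.2%, 75.5% and 71.0% at a level of only 4.22 ± 1.17 TPM. Lilrb4a, an inhibitory receptor of myeloid cells, spread most, with 37.9%, 69.4% and 66.6%. Ube2n, which makes the non-degrading ubiquitin chains of Toll-like receptor signalling, was among the steadiest, with 32.7%, 32.8% and 33.2%. The remaining 4 genes of the group were Evi2, Sh2b3, A630001G21Rik and Cd300c2, with means of 82.6% ± 14.3, 53.3% ± 3.76, 42.2% ± 1.84 and 39.4% ± 1.12 (SD, n = 3).

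RNA processing and translation gave 15 genes with a median mean share of 56.8%. Hnrnpu, a nuclear RNA-binding protein, had shares of 52.1%, 63.1% and 65.6%. Hnrnpdl, a splicing regulator known to regulate its own mRNA, had 33.8%, 50.2% and 46.2%. Both were lowest in replicate 1. Eif4a2, an RNA helicase of translation initiation and a host of small nucleolar RNAs, had 65.3%, 82.7% and 80.4%. Its leading NMD transcript, with 61.4% of its NMD counts, has no base or junction of its own. Gtpbp4, a factor of ribosome assembly, had 66.0%, 70.1% and 65.4%. Sra1, the gene of an RNA coactivator, had 73.7%, 68.9% and 72.0%. The ribosomal protein gene Rpsa had 42.9%, 38.0% and 36.6%. Genes for such proteins have many processed copies, which the authors' counting could mix with them. The spliceosome kinase gene Prpf4b had 53.9%, 73.7% and 68.2%, and Ccnl1 had 49.5%, 54.9% and 47.2%. Coding transcripts of Ccnl1 took 6.42%, 37.5% and 43.3%, the lowest in replicate 1, where retained-intron transcripts took 44.1%, against 7.62% and 9.49% in replicates 2 and 3. Other members were Trub2, Tma16, Qars, Paxbp1, Papola and Polr1a, with means from 36.8% in Polr1a to 64.9% in Trub2.

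Mitochondrial proteins gave 14 genes with a median mean share of 60.4%. Mitochondrial ribosome genes were 4 of them: Mrpl32 with 63.0%, 65.9% and 67.1%, Mrpl3 with 58.2%, 65.2% and 67.6%, Mrps14 with 57.4%, 62.4% and 61.6% and Mrpl13 with 33.5%, 35.8% and 37.6%. Respiratory chain subunits and assembly factors were another 4. Uqcc1, an assembly factor of complex III, had 64.0%, 64.5% and 66.9%, and Sdhaf2, which attaches flavin to complex II, had 67.6%, 63.5% and 66.2%. Ndufs4 of complex I had 46.8%, 43.6% and 48.0%, and Atp5f1 of the ATP synthase had 40.7%, 46.5% and 47.7%. Bak1, which opens the outer membrane in apoptosis, had 64.2%, 78.6% and 78.5%. Nsun3, Pgs1, Slc25a12, Tk2 and Mtch2 had means from 37.2% in Mtch2 to 61.2% in Nsun3. Over the 14 genes levels ran from 5.12 TPM in Nsun3 to 67.3 TPM in Atp5f1.

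Membrane, lipid and trafficking genes had the highest median mean share, 65.8% over 11 genes. Zdhhc3, a palmitoyltransferase of the Golgi, had 80.9%, 76.1% and 77.8%, and Cdipt, which makes phosphatidylinositol, had 73.9%, 80.8% and 78.3%. Mtmr12, an inactive relative of the myotubularin phosphatases, had 83.4%, 74.1% and 72.4%, and the active phosphatase gene Mtmr2 had 51.6%, 57.4% and 52.4%. Gga2, a clathrin adaptor of the trans-Golgi, had 68.7%, 79.0% and 81.9%. Its NMD transcript encodes the same number of codons as the longest coding one, 603, and it has a junction of its own 1417 bases after the stop codon. Dgkz, Stard9, Cyth2, Slc35b1, Acap2 and Dirc2 had means from 35.1% in Dirc2 to 69.2% in Dgkz.

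Chromatin, DNA and nuclear genes numbered 12, with a median mean share of 53.2%, and held the highest gene of all. Hmgxb4 (ENSMUSG00000034518.14, chromosome 8) had 94.7%, 93.1% and 95.2% of its counts on the single transcript Hmgxb4-206, against 3.69%, 5.53% and 2.83% on coding transcripts. Its level was low, at 4.95 ± 0.156 TPM. On the TPM scale, which corrects for length, its mean NMD share was 62.4%. Cbx1, the heterochromatin protein HP1 beta, had 78.2%, 76.1% and 73.9%, and Naa60, an acetyltransferase, had 68.5%, 77.8% and 78.8%. Bend4 was highest in replicates 1 and 2, with 79.0%, 80.2% and 64.8%. Aptx, whose moved splice site is printed above, had 57.1%, 60.1% and 55.9%. The transcription factor gene Nfat5 had 41.4%, 57.2% and 56.4%, lowest in replicate 1. Mynn, Mms19, Wiz, Zmym5, Pcnp and Ankrd11 had means from 36.9% in Ankrd11 to 54.7% in Mynn.

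Genes of protein folding, ubiquitin and autophagy numbered 10 and had the lowest median mean share, 46.9%. Ppia, the folding enzyme cyclophilin A, was the most abundant of the 100 genes at 470.0, 506 and 461 TPM, and its shares were 46.2%, 53.5% and 47.5%. Processed copies of Ppia are common in the genome, which adds uncertainty. Ctsh stood at 274, 192 and 212 TPM with shares of 34.0%, 35.3% and 36.6%. Becn1, which starts autophagy, had 53.1%, 51.1% and 47.5%, and the deubiquitinase gene Usp7 had 41.8%, 42.7% and 35.6%. Senp2, Rnf114, Aup1, Rnf14, Uggt1 and Asb7 had means from 41.0% in Asb7 to 65.8% in Senp2. Metabolic and redox enzymes were Glo1, Uxs1, Prdx6 and Sms. Glo1, which clears methylglyoxal, had 59.7%, 66.6% and 63.4%, and Prdx6, a peroxiredoxin, had 53.9%, 46.1% and 53.2%. Sms, the spermine synthase gene, had 32.6%, 36.6% and 34.1%, the lowest minimum of the 100, while Uxs1 had 68.2%, 62.9% and 62.5%.

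Signalling, cytoskeletal and other genes numbered 16, with a median mean share of 49.3%. Styx had shares of 73.8%, 96.6% and 96.5%, with 25.5%, 3.24% and 3.48% on coding transcripts. Ostf1 was the most abundant of this group, at 143, 136 and 137 TPM, with nearly equal shares of 64.9%, 66.9% and 67.0%. Rptor, the scaffold of the growth kinase mTORC1, had 58.7%, 53.4% and 56.2%. Lrrc40, Pcnx, Gm38394, Sass6, Pdgfc, Cdk5rap2, Stk16, Agtpbp1, Ric8a, Rtl5, Tesk1, Ppp2r2a and Arhgef10l had means from 38.7% in Arhgef10l to 62.1% in Pcnx. The group includes the centriole proteins Sass6 and Cdk5rap2 and the phosphatase subunit Ppp2r2a.

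A second deposited estimate, made directly from the reads without an alignment, was set beside the alignment-based one. It comes from the same reads, so it is no independent replicate. The read-based share was at least 10% in every library in 99 of the 100 genes, beside 5.16% of the 6449 genes. With a limit of 5% the same count was 99, beside 7.94%, and with a limit of 20% it was 98, beside 3.33%. The mean shares from both estimates lay within 10 points in 72 of the 100 genes and in 92.7% of the 1931 other genes, whose median share was 0.741%. The read-based mean was more than 10 points lower in 16 of the 100 genes (2.59% of the others) and more than 10 points higher in 12 (4.66% of the others). The median over the 100 genes was 57.5% read-based and 54.2% alignment-based.

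The exception was Rptor, with read-based shares of 16.3%, 3.26% and 2.00% against alignment-based shares of 58.7%, 53.4% and 56.2%. Its NMD transcript skips a coding exon and has 169 bases of its own. Trub2 came next, with a read-based mean of 27.4% against 64.9%. In Ifi214 the read-based shares were 23.5%, 82.4% and 82.5% against 75.2%, 95.8% and 97.4%, so that replicate 1 was lowest in both. Gga2 had 56.3% against 76.5%, and Rnf114 33.9% against 49.5%. In the opposite direction the read-based mean was 72.6% against 43.6% in Il4ra, 87.4% against 65.8% in Stard9 and 60.0% against 39.2% in Rpsa. Uggt1 and Lrrc40 had 61.3% against 45.1% and 76.4% against 61.2%. Which estimate is closer to the RNA was not tested.

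**Figure D4:**
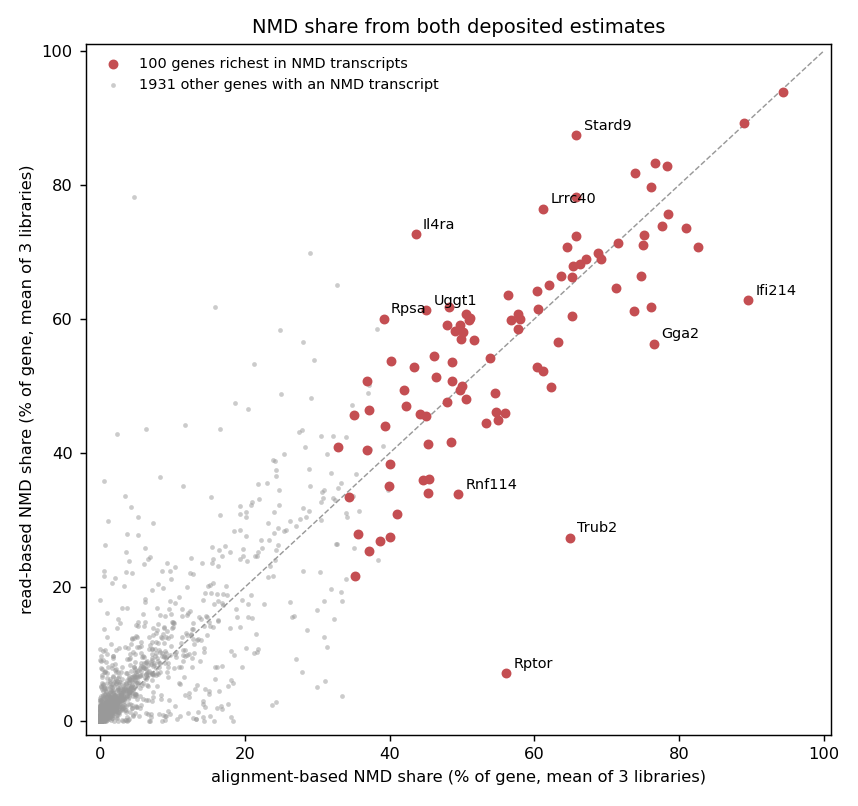
Mean NMD share per gene (percent of the gene's counts, mean of 3 libraries) from the read-based estimate (vertical axis) and the alignment-based estimate (horizontal axis), for the 100 genes (red) and the 1931 other genes with an NMD transcript (grey). The dashed line marks equal shares; Rptor and Trub2 lie furthest below it and Il4ra furthest above it among the 100.

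The posterior spread that the deposited tables give for each estimate described how well a count was resolved. The posterior SD of the leading NMD transcript was 10% or less of its mean in 81 of the 100 genes, with a median of 5.39%. In the others it was so in 6.32%, with a median of 58.7%. The others had a median NMD share of only 0.741%, and a relative SD is larger at low counts. This contrast therefore follows at least in part from the choice of the 100. Among the 100 the SD was largest, relative to the mean, in Rtl5 (61.2%), Gm38394 (49.5%), Uqcc1 (27.8%) and Evi2 (23.9%). The 95% Wilson interval of a share in replicate 1 was 0.844 to 8.45 points wide. Such intervals cover counting error only and treat expected counts as independent molecules. Exon bases of 6 genes overlap another gene on the same strand (Gbp4, Naa60, Evi2, Gm38394, Gbp6 and Lilrb4a), and those of 28 overlap one on the opposite strand. The sources used here do not name the strand setting, so reads of such pairs may not have been separated.

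The range of the share over the libraries had a median of 6.18 points, was 5 points or less in 33 of the 100 genes and exceeded 10 points in 18. In the 1931 other genes the median range was 0.661 points, with 86.6% at 5 points or less and 3.99% above 10 points. Their median share was only 0.741%, which leaves little room for a range in points, so this contrast follows from the choice. Among the 100 the 5 genes with the largest range were Lilrb4a, Evi2, Styx, Ifi214 and Prpf4b, and all 5 were lowest in replicate 1. Evi2 had 66.7%, 86.8% and 94.4% and no base or junction of its own. In Prpf4b coding transcripts took 39.1%, 22.4% and 28.0%. Over the 100 genes replicate 1 was lowest in 42, beside 30.9% of the 1773 genes with an NMD share above 0, and highest in 33, beside 42.1%. The share was more than 10 points lower in replicate 1 than the mean of the other libraries in 12 of the 100 genes and more than 10 points higher in 2. These counts were not made for other genes, so they cannot be called particular to the 100.

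Transcripts with a retained intron, in which an intron was left unspliced, were most abundant in replicate 1. Their mean share over the 100 genes was 4.99%, 1.77% and 1.82% in replicates 1, 2 and 3, and over the 6449 genes 3.70%, 1.72% and 1.65%. Of the 78 members with counts on such transcripts, 71 had the highest share in replicate 1. This was not counted over the 6449 genes, whose mean was also highest there, so it cannot be called a trait of the members. In Lilrb4a retained-intron transcripts took 61.6%, 17.3% and 17.5%, beside NMD shares of 37.9%, 69.4% and 66.6%. In Ifi214 they took 18.9%, 0.963% and 1.20%. In Styx and Evi2 they took at most 0.766% and none, and there the coding share was highest in replicate 1, with 25.5%, 3.24% and 3.48% in Styx and 33.3%, 13.2% and 5.61% in Evi2. The part that nuclear RNA in replicate 1 has in these differences was not tested. Without replicate 1 the median NMD share was 53.6% and 82 of the 100 genes were chosen again. None of the 100 was also among the 100 genes richest in retained-intron transcripts, which make up 1.55% of the 6449.

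**Figure D5:**
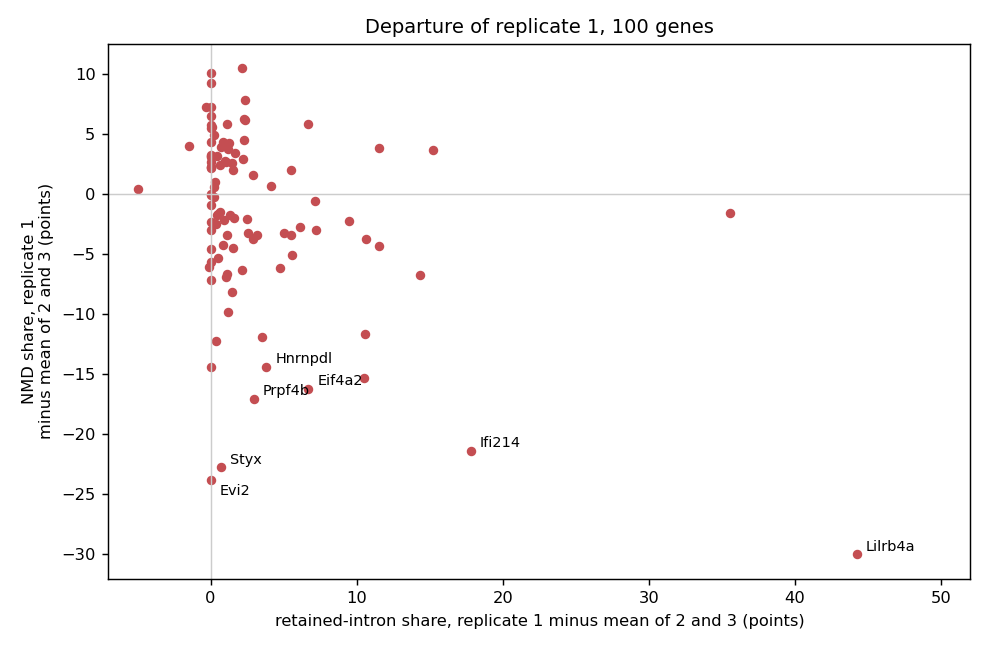
Difference of replicate 1 from the mean of replicates 2 and 3 in NMD share (vertical axis, percentage points) and in retained-intron share (horizontal axis, percentage points), 1 point per gene for the 100 genes. The 7 genes with the largest range of NMD share are named and all lie below 0, with Lilrb4a at the lower right and Evi2 and Styx near 0 on the horizontal axis.

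Gene totals were described by their spread between libraries. The median biological coefficient of variation, the spread of a gene's total between libraries beyond counting error, was 0.139 in the 100 genes and 0.138 in the 6449. Ccnl1, Paxbp1 and Mx1 had the largest values, 0.424, 0.379 and 0.352. On the log2 CPM scale (with a prior count of 2) the median difference of replicate 1 from the mean of replicates 2 and 3 was 0.06 in gene totals of the 100 genes. In gene totals of the 6449 genes the median was -0.0001. For NMD transcripts of the 100 genes alone the median was 0.06, and for NMD transcripts of other genes 0.11. The read-based counts gave a median of -0.03 for NMD transcripts of the 100 genes, so the direction of this difference depended on the estimate. In Ccnl1 the difference was 1.62 in the total and 1.58 in NMD transcripts, in Paxbp1 1.41 and 1.51, and in Mx1 1.22 and 1.19. In Lilrb4a the total differed by 0.90 but NMD transcripts by only 0.06.

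The genes of the decay machinery were expressed. Of 20 core NMD and surveillance genes 15 passed the count minimum and 3 of these had an annotated NMD transcript, and the median level of the 20 was 6.96 TPM. None of the 15, of the 5 exon junction complex genes or of the 7 general decay enzymes that passed was among the 100, which make up 1.55% of all genes that passed, so this count says nothing particular of these lists. Pnrc2, which links the pathway to decapping, was highest at 37.8 ± 7.86 TPM (SD, n = 3), followed by the release factor genes Etf1 at 29.6 ± 3.03 TPM and Gspt1 at 19.1 ± 1.14 TPM. The lowest were Upf3b at 2.42 ± 0.395 TPM and Gspt2 at 0.303 ± 0.0306 TPM. Of 9 exon junction complex genes Eif4a3, Acin1 and Rnps1 led with 33.6 ± 4.09 TPM, 23.5 ± 7.18 TPM and 20.2 ± 0.162 TPM, and Casc3 and Magohb were lowest with 7.83 ± 1.01 TPM and 5.15 ± 1.85 TPM. Among 8 general decay enzymes Xrn2, Dcp2 and Exosc10 led with 24.6 ± 5.94 TPM, 16.0 ± 4.38 TPM and 12.3 ± 0.464 TPM, and Ttc37 and Dis3 were lowest with 3.44 ± 0.595 TPM and 1.62 ± 0.265 TPM.

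Among 62 splicing regulators known for poison exons or self-regulation 58 passed the count minimum, 46 of these had an NMD transcript and 2 were members, Hnrnpu and Hnrnpdl. The 2 members are 3.45% of the 58 and 4.35% of the 46, beside 1.55% of all genes that passed and 4.92% of those with an NMD transcript. The median NMD share of the 58 was 1.82%, beside 0% over the 6449 genes and 0.854% over those with an NMD transcript. The kinase gene Clk1, Hnrnpa1 and Tardbp were the highest of the genes that are no members, with means of 35.8% ± 11.5, 34.9% ± 5.78 and 30.6% ± 5.41 (SD, n = 3), while several others stood at 0. Of 10 ribosomal protein genes known for self-regulated splicing none was a member, and Rpl12, Rpl10a and Rpl3 were highest of the 9 that passed the count minimum, with 25.0% ± 5.50, 3.26% ± 0.204 and 1.47% ± 0.362. Eif4a2 was the only member among 10 hosts of small nucleolar RNAs, of which 5 passed. Of the other genes that passed, Nop56 and Eif4a1 had 1.04% ± 0.477 and 0.216% ± 0.0633, and Rack1 and Ncl have no NMD transcript. None of 15 stress-response genes known as NMD targets was a member. Only 2 of the 11 that passed have an NMD transcript in this annotation, Cars at 5.89% ± 0.269 and Ifrd1 at 0. Of 7 polyamine and methionine genes none was a member, and Odc1, Sat1 and Azin1 led with 11.5% ± 1.45, 8.51% ± 0.733 and 5.93% ± 0.462.

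The boundary of the 100 was not a gap in the data. The lowest shares of the last members were 33.8% in Hnrnpdl, 33.5% in Mrpl13, 33.1% in Ankrd11, 32.7% in Ube2n and 32.5858% in Sms. Just outside stood Gpsm3 with 32.5844%, Stam with 32.4%, Gpr137b with 32.2%, Mboat7 with 32.1% and Arid5a with 31.8%. Sms and Gpsm3 differed by far less than the range of either gene over the libraries.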

How the data were processed

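Cytosolic RNA of 3 libraries of a single group was analysed, so no groups were compared and no p-value was computed. The authors deposited expected counts, TPM and the percent of a gene's TPM on each transcript from a transcriptome alignment, and estimated counts and TPM made directly from the reads, per the file headers. Both use mm10 and GENCODE M21, per the labels. The deposited posterior SD, a score in counts, was divided by the posterior mean. The sources used here name neither the quantification tools and their versions nor the strand setting. Totals and NMD shares were summed per gene from the transcript tables.

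Gene expected counts were rounded to whole numbers, scaled with TMM in edgeR 4.0.16 under R 4.3.3, with DESeq2 1.42.0 size factors as an alternative, and fitted with an intercept for the coefficient of variation. Shares, transcript structure and Wilson intervals at 95% were computed with Python 3.11.15, pandas 2.3.3 and scipy 1.17.1, and figures with matplotlib 3.10.9. The scripts were tested on simulated data. Intervals cover counting error only.

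The members and lists were chosen with earlier results of these data known. Genes named with values by rule were the 20 with the highest lowest share, 5 on each side of the boundary, the 5 most abundant, the 5 furthest below and 5 furthest above in the read-based estimate, the 5 with the largest range, and, for each list, its members with the 3 highest and 2 lowest other genes (not named where several stood at 0). Other genes were named, and all roles assigned, after their values were seen. The values of 1 gene that the rule names are not reported here. Sequences were read from the GENCODE M21 transcripts.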

Additional observations from a re-analysis of the deposited data

How the results depend on the processing

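The median NMD share of the 100 genes, 54.2%, was 57.5% with read-based counts and 56.4% as a share of TPM, and 53.5% to 54.0% with 1 library left out. Choosing the genes again kept 66 of the 100 at a count minimum of 100, 60 at 1000 and 50 with none, 75 with read-based shares, 80 with shares of TPM, 93 by the mean share, and 82 to 98 with 1 library left out. The median coefficient of variation, 0.139, ran from 0.0907 without replicate 1 to 0.187 without replicate 3. The median log2 difference of replicate 1 in gene totals was 0.016 with library totals, against 0.063 with TMM. For NMD transcripts it was -0.025 with read-based counts, against 0.062, and 0.034 to 0.069 with replicate 2 or 3 left out. Of the 100 genes 5 were among the 200 of the 6449 genes that are richest in retained-intron transcripts. This small count says nothing particular of the 100 genes. The causes were not tested. Leave-one-out values of the read-based count, the gene totals, the NMD transcripts, the stop codon distance and the retained-intron overlap were added after seeing the data. No paired analysis was possible because all libraries belong to 1 group. Depth limits the genes near 500 counts most.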
